A study of Mus musculus with 135 samples.

Results

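ATP-binding cassette (ABC) genes were examined in single haematopoietic stem cells (HSCs) of a young and an old mouse. They were taken as all genes of the read count table whose symbol starts with Abca, Abcb, Abcc, Abcd, Abce, Abcf or Abcg followed by a digit, without names that join several genes. This gave 37 of 15181 genes, of which 11 belong to subfamily A, 8 to B, 6 to C, 4 to D, 1 to E, 3 to F and 4 to G. The cells came from the bone marrow of C57BL/6 mice that carry the Vwf-eGFP reporter, a transgene present in both age groups. The young mouse was 2 to 3 months old and the old mouse 20 to 25 months old. Cells were sorted as 7AAD- (viable) Lin-Sca-1+c-Kit+CD150+CD48- HSCs, captured on a C1 microfluidic chip and sequenced as polyA RNA. Each age is 1 mouse, so differences between the ages could not be checked in other animals, no test between ages was made, and the SD given with a level is the spread over cells of 1 mouse.

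ABC proteins bind and hydrolyse ATP in a pair of cassettes, and most of them use this to move a substrate across a membrane. Members of subfamilies A and G export sterols and phospholipids, members of B and C export drugs, peptides, haem precursors and conjugates, and members of D carry fatty acids into peroxisomes. The products of subfamilies E and F have no membrane part and act on ribosomes. HSCs are known for efflux of the dyes Hoechst and rhodamine, which has long been used to isolate them. *Abcg2* encodes the Hoechst transporter, and *Abcb1a* and *Abcb1b* encode the mouse P-glycoproteins that export rhodamine.

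Both P-glycoprotein genes lie in tandem with *Abcb4*, which encodes the phosphatidylcholine exporter of bile, on chromosome 5 (GRCm38, plus strand; *Abcb1a* chr5:8567091-8748575, *Abcb1b* chr5:8798147-8866314, *Abcb4* chr5:8893614-8959226). Their sequences matter here because the reads were 51 bases long and a read from a stretch that the genes share cannot be assigned to either of them with certainty. Of the 51-base words of the *Abcb1a* transcript, 15.3% also occurred in *Abcb1b*, and 17.7% of those of *Abcb1b* occurred in *Abcb1a*. The longest stretch without a difference was 338 bases. The part of it shown here (bases 1679 to 1798 of the *Abcb1a* transcript in the GENCODE M21 annotation, exons 13 to 14 of 28, chr5:8702557-8702896 with the intron between them) is the same in both genes. Capitals mark the codons of the signature motif, which contacts ATP in the cassette. The run shown second (bases 3291 to 3400, exon 25, chr5:8738761-8738870) is the longest that *Abcb1a* shares with *Abcb4*, at 110 bases, and capitals mark the codons of its Walker A motif, which holds the phosphates of ATP. All of these bases are coding.
Abcb1a and Abcb1b: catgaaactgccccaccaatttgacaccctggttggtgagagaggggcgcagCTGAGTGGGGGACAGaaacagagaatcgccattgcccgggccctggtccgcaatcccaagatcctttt
Abcb1a and Abcb4: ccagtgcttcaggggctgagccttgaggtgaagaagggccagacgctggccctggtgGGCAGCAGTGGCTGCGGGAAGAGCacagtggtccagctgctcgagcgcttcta

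The promoters of the 2 P-glycoprotein genes are shown as well. The 250 bases before each start are given from RefSeq (GRCm38.p6, plus strand), because both genes were often expressed in the same cells. Capitals mark the GC box GGGCGG, the CCAAT box CCAAT and the TATA box TATAAA on either strand, searched over 250 bases before to 50 after the start.
Abcb1a promoter, chr5:8566841-8567090: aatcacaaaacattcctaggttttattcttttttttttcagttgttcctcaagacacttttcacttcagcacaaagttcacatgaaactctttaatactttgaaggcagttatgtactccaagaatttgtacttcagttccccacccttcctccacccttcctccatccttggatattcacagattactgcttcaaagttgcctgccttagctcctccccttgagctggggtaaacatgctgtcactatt
Abcb1b promoter, chr5:8797897-8798146: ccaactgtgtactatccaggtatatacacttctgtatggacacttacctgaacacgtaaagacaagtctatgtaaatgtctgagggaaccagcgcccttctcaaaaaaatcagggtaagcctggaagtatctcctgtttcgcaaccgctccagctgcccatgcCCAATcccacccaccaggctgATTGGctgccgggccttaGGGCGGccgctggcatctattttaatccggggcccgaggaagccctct

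The *Abcb1b* window held 1 GC box and 2 CCAAT boxes, and the *Abcb1a* window held none of the 3 motifs. Over all 32851 RefSeq promoters of this length, 35.7% held the GC box, 37.4% the CCAAT box and 13.6% the TATA box. For the ABC genes, 34 promoters of 28 genes were available, with some genes counted more than once and none for *Abcg1*, *Abcb8* or *Abcc1*. Of the 34 promoters, 61.8% held the GC box, 32.4% the CCAAT box and 17.6% the TATA box. These are matches of letters and not sites of binding.

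The deposited table gave read counts for 61 young and 74 old cells, and the 114 cells that passed the quality limits of the study (52 young and 62 old) were used. Between 273236 and 5688706 reads were counted per young cell and between 276316 and 4086659 per old cell. A count was divided by the total of its cell and multiplied by 1000000 to give CPM. Levels of genes are means of log2(CPM + 1) over the cells of a mouse, and an expressing cell is defined by a value of log2(CPM + 1) above 2. Intervals of shares (95%, exact Clopper-Pearson) cover counting error over cells only, and those of summed reads (95%, exact Poisson) counting error over reads only. The reads carry no molecular identifiers, so copies of 1 molecule count as separate reads. The intervals of summed reads also leave out the spread between cells, and are too narrow as a measure of it. No 2 cells had identical counts, and 46 names of capture sites occurred in both ages. *Xist* was found in 50 of the young cells but 8 of the old cells, so age, mouse, sex-linked expression and capture run cannot be told apart. At least 1 of 10 stem cell markers was present in every cell. Markers of other cell types that differed most between the ages were those of dendritic cells (4 of 5 in the table, each expressed in at least 1 cell), of which at least 1 was expressed in 16 young and 47 old cells, with summed levels from 0 to 1211 CPM in young and from 0 to 4581 CPM in old cells. Megakaryocyte and platelet markers (5 of 5) followed, with at least 1 expressed in 21 young and 37 old cells, at 0 to 1116 CPM and 0 to 2891 CPM. Of these 5, *Gp9* (14 young and 24 old cells) and *Pf4* (5 and 11) had higher mean levels in old cells. *Itga2b* (13 and 17), *Ppbp* (2 and 2) and *Gp1bb* (1 and 2) did not, with differences of -0.05, -0.15 and -0.03. Within the dendritic cell list the rise was in the MHC class II genes *Cd74* (6 young and 37 old cells) and *H2-Aa* (8 and 38), whereas *Flt3* (5 and 2) and *Siglech* (2 and 5) were in few cells of either age. The part of these markers in the differences below was not tested.

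Of the 37 ABC genes, 27 were expressed in at least 10% of the 114 cells. The other 10 (*Abca4*, *Abca8a*, *Abca8b*, *Abca14*, *Abca17*, *Abcb6*, *Abcb9*, *Abcc3*, *Abcc10* and *Abcg5*) were expressed in at most 7.02% of cells, with differences from -0.39 to 0.34, and *Abca14* had no read in the cells used. For *Abca14* a count of 0 allows, at 3 cells, a share of up to 5.77% of young and 4.84% of old cells with a read, and the upper ends of the exact intervals were 6.85% and 5.78%. A gene was called higher or lower in the old cells where the old minus young difference in mean log2(CPM + 1) was at least 1, which is 2-fold on this scale. Of the 27 genes, 1 was higher (*Abcc1*) and 3 were lower (*Abcg1*, *Abce1* and *Abcb8*). These are 3.70% and 11.1% of the 27, against 6.24% higher and 6.98% lower of all 9374 genes that passed the same filter. The median difference of the 27 was -0.29, against -0.07 over all genes, but it is the value of *Abcc9*, and without *Abcc9*, *Abcd2* and *Abcd4*, whose uniform counts are described further down, the median was 0.07. Above zero were 13 genes and below zero 14, which is 48.1% above zero, against 45% of all genes.

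**Figure D1:**
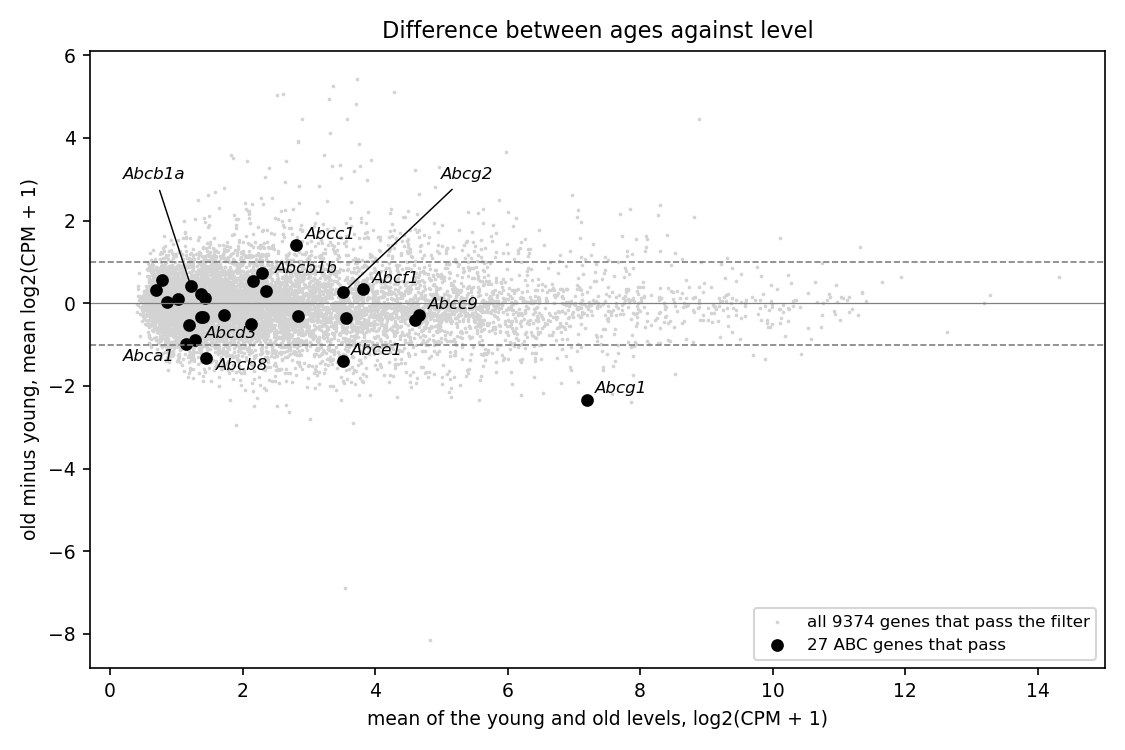
Old minus young difference in mean log2(CPM + 1) (y axis) against the mean of the young and old levels (x axis, log2(CPM + 1)), for all 9374 genes that passed the filter (grey) and the 27 ABC genes among them (black); dashed lines mark a difference of 1 in either direction. Most ABC genes lie within the grey cloud, with Abcg1 at -2.33 the lowest and Abcc1 at 1.40 the highest of them.

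The largest difference among the ABC genes was in *Abcg1* (chr17:31057694-31117984, plus strand), which encodes an exporter of cholesterol to high-density lipoprotein. It had the highest level per kilobase of transcript of all 37 genes in both ages, with a mean of 191 CPM per kb in young and 62.9 CPM per kb in old cells. Its level in single young cells ran from 0 to 11.76 with a median of 9.60, and in old cells from 0 to 10.44 with a median of 7.36. The ages overlapped, but a level above 8 was found in 37 of 52 young cells (71.2%) and in 28 of 62 old cells (45.2%). The mean was 8.36 ± 3.56 (SD, n = 52 cells) in young and 6.03 ± 3.86 (n = 62) in old cells, a difference of -2.33, which was rank 14 among the falls of all 9374 genes. Expressing cells were 45 of 52 (86.5%, 74.2 to 94.4) and 44 of 62 (71%, 58.1 to 81.8). In all, 155827 reads (155054 to 156603) were counted in young and 48213 (47784 to 48645) in old cells. Among expressing cells the median level was 10.23 in young and 9.02 in old, so levels were lower in old cells that expressed the gene as well.

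*Abca1*, which encodes the transporter that loads cholesterol onto lipid-poor apolipoprotein, was expressed in 12 young and 7 old cells. Its mean level was 1.64 ± 2.92 in young and 0.65 ± 1.80 in old cells, and the difference of -0.99 lay just inside the limit of 1 (-1.12 to -0.78 with any 1 cell left out). A single cell held 83.0% of its 20904 young reads. Expression of *Abca1* and *Abcg1* in the same cell was seen in 11 of 12 young cells with *Abca1* and 34 of 40 without it, and in 4 of 7 old cells with *Abca1* and 40 of 55 without it. *Abcg1* was thus not more frequent among cells with *Abca1* beyond counting error in either age (91.7%, 61.5 to 99.8, against 85.0%, 70.2 to 94.3 in young; 57.1%, 18.4 to 90.1, against 72.7%, 59 to 83.9 in old).

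Of all 9374 genes that passed the filter, 6.24% were higher and 6.98% lower in old cells, with a median difference of -0.07. The gene lists here and below are short and were not tested against these shares. Of 16 sterol genes that passed the filter (synthesis, sensing and efflux partners, from a list of 19), 2 were higher in old cells, none was lower, and the median difference was -0.38. Among them was *Apoe*, an apolipoprotein that accepts exported cholesterol (4.86 ± 3.82 in young and 6.12 ± 3.20 in old cells, difference 1.26), which was expressed in 34 young and 53 old cells.

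**Figure D2:**
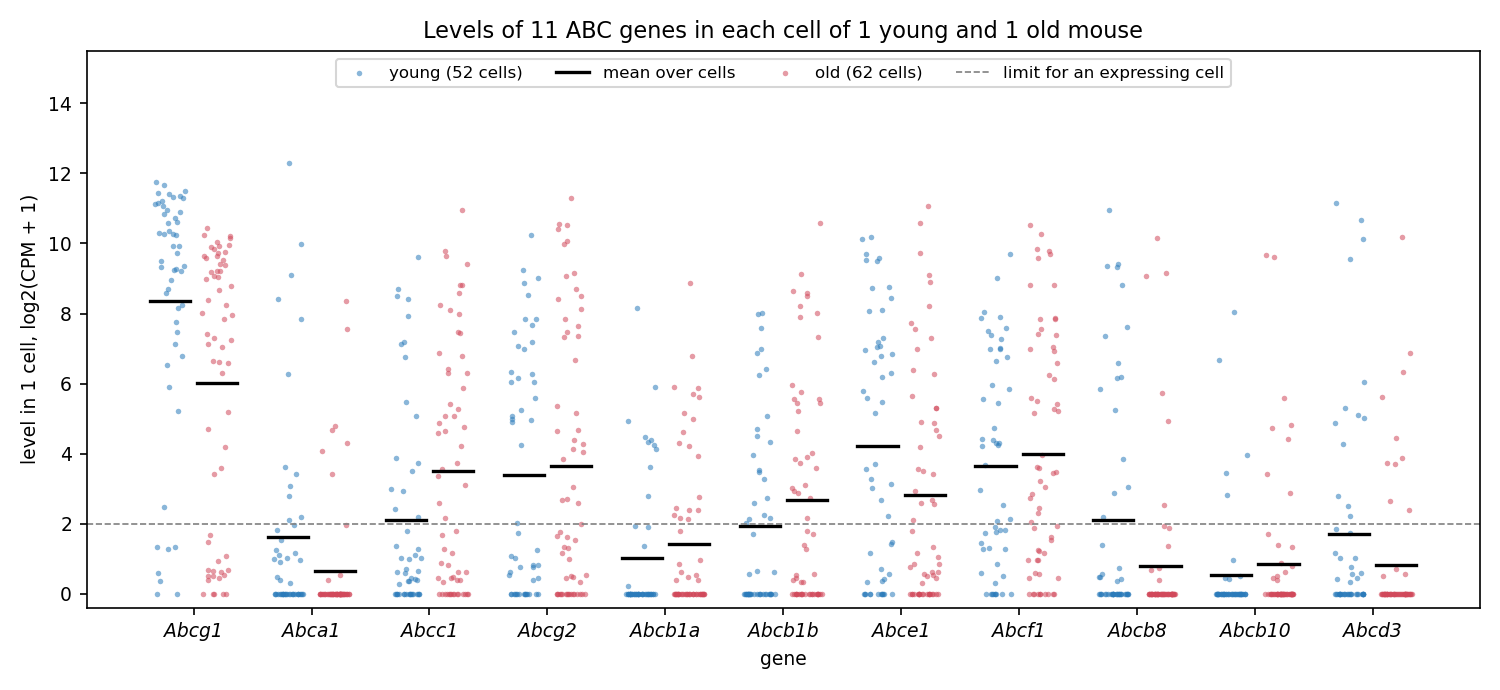
Level in each cell, log2(CPM + 1) (y axis), of 11 ABC genes (x axis) in 52 young (blue) and 62 old (red) cells; black lines are means over cells and the dashed line is the limit of 2 for an expressing cell. Abcg1 shows a dense group of young cells above 8 that is thinner in old cells, while most other genes have many cells at 0 in both ages.

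*Abcg2* (chr6:58584491-58692451, plus strand) was present in many cells of both ages. Its level ran from 0 to 10.23 with a median of 1.49 in young cells, and from 0 to 11.30 with a median of 2.29 in old cells. Cells at 0 and cells with high levels were found in both ages, with 15 young and 17 old cells without a read, and 5 young and 12 old cells above a level of 8. Expressing cells were 25 of 52 (48.1%, 34 to 62.4) and 31 of 62 (50%, 37 to 63), and the shares were not distinguishable at this number of cells. The mean was 3.39 ± 3.42 in young and 3.65 ± 3.73 in old cells, a difference of 0.26. The ratio of summed CPM (log2, with 1 CPM added to each) gave 0.88, from 12667 young and 20234 old reads, and the 47 young and 51 old cells with at least 1000000 counted reads gave a difference of -0.07. Per kilobase, *Abcg2* was rank 8 of the ABC genes in young cells (16.6 CPM per kb) and rank 4 in old cells (35.5 CPM per kb).

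*Abcg3*, a rodent relative of *Abcg2*, was expressed in 17 young and 16 old cells, at 2.39 ± 3.36 and 1.88 ± 3.26. The difference of -0.51 was 0.61 in the ratio of summed CPM, so its direction depended on the scale.

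*Abcb1a* was expressed in fewer cells than *Abcg2*. Its level ran from 0 to 8.15 in young and from 0 to 8.87 in old cells, with a median of 0 in both. No read was found in 38 young and 35 old cells. Expressing cells were 10 of 52 (19.2%, 9.6 to 32.5) and 19 of 62 (30.6%, 19.6 to 43.7), with overlapping intervals. The mean was 1.01 ± 1.96 in young and 1.43 ± 2.23 in old cells, a difference of 0.42. Summed reads were 1246 (1178 to 1317) and 2150 (2060 to 2243), and 1 old cell held 57.6% of the old reads.

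*Abcb1b* was expressed more widely, in 21 young (40.4%, 27 to 54.9) and 28 old cells (45.2%, 32.5 to 58.3). Its level ran from 0 to 8.02 in young cells, with a median of 0, and from 0 to 10.57 in old cells, with a median of 1.34. The mean was 1.93 ± 2.59 and 2.66 ± 3.12, and the difference of 0.73 was the second largest rise of the family. A level above 8 was found in 1 young and 7 old cells. *Abcb4* was expressed in 9 young and 15 old cells, with a difference of 0.11.

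Cells that expressed *Abcb1a* often expressed *Abcb1b*. In young cells this was 9 of 10 cells with *Abcb1a* (90%, 55.5 to 99.7) and 12 of 42 without it (28.6%, 15.7 to 44.6). In old cells it was 14 of 19 (73.7%, 48.8 to 90.9) and 14 of 43 (32.6%, 19.1 to 48.5). With every cell thinned to 250000 reads, the counts were 9 of 10 and 9 of 42 in young cells and 14 of 20 and 14 of 42 in old cells. The intervals did not overlap in either age as counted, but those of the thinned old cells did (45.7 to 88.1 and 19.6 to 49.5). The sequence shared by the genes bears on it, since a read from a shared stretch can be counted on the wrong gene. Among the 23 cells of both ages that expressed both genes, *Abcb1a* held from 4.98% to 98.7% of their joint reads, with a median of 11.5%. Of the 49 cells that expressed *Abcb1b*, 23 had no *Abcb1a* read at all, and 4 of the 29 cells that expressed *Abcb1a* had no *Abcb1b* read. How many reads of either gene came from the other was not tested.

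*Abcg2* and *Abcb1a* did not show such an overlap. *Abcb1a* was expressed in 5 of 25 young cells with *Abcg2* (20%, 6.8 to 40.7) and 5 of 27 without it (18.5%, 6.3 to 38.1). In old cells the counts were 10 of 31 (32.3%, 16.7 to 51.4) and 9 of 31 (29%, 14.2 to 48). Neither *Abcg2* nor *Abcb1a* was expressed in 22 young and 22 old cells. For *Abcg2* and the more widely expressed *Abcb1b* this held in 18 young and 19 old cells.

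The shares of several ABC genes were unlike in young cells with and without cell cycle transcripts, though the intervals of each pair below overlapped. Transcripts of *Cdk1*, *Ccna2*, *Ccnb1* or *Cdc25c*, which drive entry into S phase and mitosis, were found in 27 young cells (of 52) and 13 old cells (of 62), and each of the 4 genes was lower in old cells by more than 1. *Abcb1a* was expressed in 9 of 25 young cells with none of these transcripts (36%, 18 to 57.5) and in 1 of 27 with at least 1 (3.70%, 0.094 to 19). *Abcb1b* followed, with 14 of 25 (56%, 34.9 to 75.6) and 7 of 27 (25.9%, 11.1 to 46.3). The old cells did not show this, with *Abcb1a* in 15 of 49 cells without (30.6%, 18.3 to 45.4) and 4 of 13 cells with such a transcript (30.8%, 9.1 to 61.4), and the difference between the ages in this respect was not tested. Median depth was 2941748 and 2686914 reads in the 2 sets of young cells.

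The shares of *Abce1*, *Abcf1* and *Abca2* ran the other way in young cells. *Abca2* was expressed in 5 of 25 young cells without cell cycle transcripts (20%, 6.8 to 40.7) and 14 of 27 with them (51.9%, 31.9 to 71.3). In old cells its shares were reversed, with 21 of 49 cells without (42.9%) and 4 of 13 with them (30.8%). *Abce1* was expressed in 11 of 25 young cells without cell cycle transcripts (44%, 24.4 to 65.1) and 21 of 27 with them (77.8%, 57.7 to 91.4), and *Abcf1* in 10 of 25 (40%, 21.1 to 61.3) and 20 of 27 (74.1%, 53.7 to 88.9). *Abcg1* and *Abcc1* showed no such gap in young cells, with 84% and 88.9% of cells expressing *Abcg1* and 28% and 37% expressing *Abcc1*. In old cells *Abcf1* ran the same way as in the young, with 27 of 49 cells without (55.1%, 40.2 to 69.3) and 11 of 13 with such transcripts (84.6%, 54.6 to 98.1), and *Abce1* was in 21 of 49 (42.9%) and 7 of 13 (53.8%). *Abcg1* was expressed in 37 of 49 old cells without them (75.5%, 61.1 to 86.7) and 7 of 13 with them (53.8%, 25.1 to 80.8), and *Abcc1* in 25 of 49 and 8 of 13, and the intervals overlapped for each of these genes.

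Where only the 25 young and 49 old cells without these transcripts were compared, *Abcb1a* turned to -0.45 and *Abcb1b* to -0.27. The difference of *Abcg1* was then -1.86, that of *Abcb8* -1.19 and that of *Abcc1* 1.30, so these 3 stayed past the limit, whereas *Abce1* was at -0.53. *Abca2*, which encodes a lipid transporter of endosomes, and *Abcf1* came past the limit, at 1.5 and 1.14, from 0.29 and 0.34 in all cells used, and *Abca5* came past it in the other direction, at -1.01 from -0.53. This made 3 ABC genes higher and 3 lower. In this set of cells 12.3% of 9060 genes were higher and 6.46% lower.

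**Figure D3:**
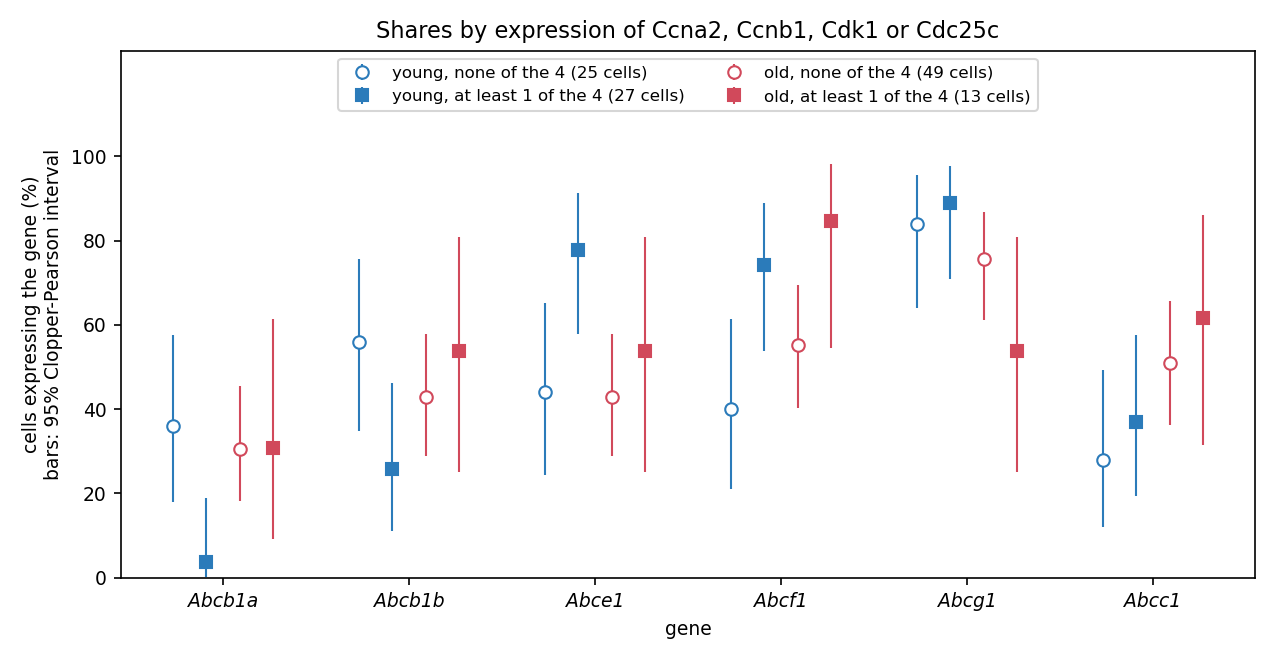
Share of cells expressing 6 ABC genes (y axis, %; bars, 95% Clopper-Pearson intervals) in young (blue) and old (red) cells with none (open circles) or at least 1 (filled squares) of Cdk1, Ccna2, Ccnb1 and Cdc25c. In young cells the squares lie below the circles for Abcb1a (3.70% and 36%) and Abcb1b and above them for Abce1 and Abcf1, with overlapping intervals.

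*Abcc1* (chr16:14361453-14474878, plus strand), which encodes an exporter of glutathione conjugates and leukotriene C4, was the gene called higher in old cells. Its level ran from 0 to 9.61 with a median of 0.63 in young cells, and from 0 to 10.97 with a median of 2.85 in old cells. Low and high cells were found in both ages, with 18 young and 15 old cells without a read. The mean was 2.11 ± 2.90 in young and 3.51 ± 3.40 in old cells, a difference of 1.40. Expressing cells were 17 of 52 (32.7%, 20.3 to 47.1) and 33 of 62 (53.2%, 40.1 to 66). Summed reads were 7429 (7261 to 7600) and 20282 (20004 to 20563). It was also the member of subfamily C with the highest level per kilobase, at 7.57 CPM per kb in young and 18.2 CPM per kb in old cells. Without the young cell with most *Abcc1*, its young level was 5.47 CPM per kb and *Abcc5* was the highest, at 6.89 CPM per kb. Without the young cell with most *Abcc5*, which held 58.5% of its summed CPM, *Abcc5* was at 2.86 and *Abcc1* at 7.72 CPM per kb.

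*Abcc5*, which encodes an exporter of cyclic nucleotides, was expressed in 20 young and 25 old cells, at 1.89 ± 2.63 and 2.43 ± 2.79, a difference of 0.55. A single cell held 72.9% of its young reads and another 58.6% of its old reads. Of 8 measured regulators of drug and dye transporters that passed the filter (from a list of 14), 2 were higher, 1 was lower, and the median difference was 0.08. Over all genes that passed, 6.24% were higher and 6.98% lower. *Trp53*, a stress-responsive transcription factor, was at 7.52 ± 3.45 in young and 6.24 ± 3.82 in old cells (-1.28). *Keap1*, the inhibitor of the oxidative stress factor NRF2, was at 0.93 ± 2.18 and 2.21 ± 3.11 (1.27). The other higher gene was *Hif1a*, a subunit of the hypoxia factor, at 1.32 ± 2.64 and 2.40 ± 3.35 (1.08).

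Transporters of the mitochondrial inner membrane differed among themselves. *Abcb8* (chr5:24393681-24412759, plus strand), a member tied to potassium and iron transport, was expressed in 16 young (30.8%, 18.7 to 45.1) and 6 old cells (9.7%, 3.6 to 19.9). Its level ran from 0 to 10.96 in young and from 0 to 10.14 in old cells with a median of 0 in both, and 29 young and 50 old cells had no read. The mean was 2.10 ± 3.33 in young and 0.78 ± 2.24 in old cells, a difference of -1.32, which became -0.98 when the cells that failed the quality limits were included. Among expressing cells the median level was 7.41 in the 6 old and 6.40 in the 16 young cells, with too few old cells to compare them.

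*Abcb10*, which takes part in haem synthesis, was expressed in 5 young and 8 old cells, at 0.53 ± 1.61 and 0.86 ± 2.09 (0.33). Of 15 haem and iron-sulfur genes that passed the filter (from a list of 20), 1 was higher and 2 were lower, with a median of -0.17. The shares over all genes were 6.24% higher and 6.98% lower. *Lyrm4*, a partner of the sulfur donor of iron-sulfur clusters, was at 6.08 ± 3.49 in young and 4.30 ± 3.35 in old cells (-1.78). *Slc25a39*, a mitochondrial carrier of glutathione, was at 2.64 ± 2.95 and 0.95 ± 2.19 (-1.68).

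The soluble proteins of subfamilies E and F act in translation. *Abce1* (chr8:79683442-79711740, minus strand), which splits ribosomes after termination, ran from 0 to 10.20 with a median of 3.64 in young cells, and from 0 to 11.08 with a median of 1.11 in old cells. The ages overlapped over nearly the whole range. The mean was 4.21 ± 3.62 in young and 2.81 ± 3.26 in old cells, a difference of -1.41. Expressing cells were 32 of 52 (61.5%, 47 to 74.7) and 28 of 62 (45.2%, 32.5 to 58.3). With the cells that failed the quality limits included the difference was -0.81, and the ratio of summed CPM gave -0.08, with 1 old cell holding 40.5% of the 17835 old reads.

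*Abcf1*, which binds initiation factor eIF2, was expressed in 30 young and 38 old cells, at 3.65 ± 2.98 and 4.0 ± 3.36 (0.34). Per kilobase it was rank 7 of the family in young cells (22.8 CPM per kb) and rank 2 in old cells (47 CPM per kb). *Abcf2* was expressed in 11 young and 13 old cells and was rank 3 per kilobase in young cells (37.8 CPM per kb). *Abcf3*, at -0.32, turned to 2.41 in the ratio of summed CPM, where 1 old cell held 56.1% of the old reads. Of 11 partners of these proteins in termination, ribosome rescue and the integrated stress response (from a list of 13), none was higher, 2 were lower, and the median difference was -0.33. The shares over all genes were 6.24% higher and 6.98% lower, and a list this short was not tested against them. *Eif2s3x*, the X-linked gamma subunit of eIF2, was at 4.83 ± 2.96 in young and 3.32 ± 3.19 in old cells (-1.5), and its Y-linked partner *Eif2s3y* was expressed in 0 young and 42 old cells. *Eif2ak4*, the amino acid sensing kinase of eIF2, was at 2.16 ± 2.75 and 1.12 ± 2.08 (-1.04).

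Peroxisomal transporters were within the limit of 1. *Abcd3*, which carries branched-chain and dicarboxylic acyl-CoA, was expressed in 13 young and 10 old cells, at 1.72 ± 3.02 and 0.83 ± 2.05 (-0.89, and -1.04 to -0.70 with any 1 cell left out). It had the highest level per kilobase of subfamily D in young cells, at 33.2 CPM per kb, against 6.79 CPM per kb in old cells. Single cells held 41.4% of its young and 77.0% of its old reads, and without the cell with the highest *Abcd3* level of each age these values were 21 and 1.47 CPM per kb. Over all genes that passed the filter, 6.24% were higher and 6.98% lower by 1. None of 15 peroxisome genes that passed the filter (from a list of 19) was higher or lower by 1, and the median was -0.05. Those with the largest differences were *Acaa1a*, a peroxisomal thiolase, in 13 young and 3 old cells (1.30 ± 2.41 and 0.35 ± 1.20, -0.94), and *Elovl1*, which elongates fatty acids, in 15 young and 26 old cells (2.27 ± 3.51 and 3.11 ± 3.78, 0.84).

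In the remaining genes of subfamily A, the summed reads were often held mostly by a single cell, which has less weight in the mean of log levels. *Abca5*, a lysosomal member, was expressed in 12 young and 12 old cells, at 1.46 ± 2.82 and 0.92 ± 1.95 (-0.53), and 1 young cell held 90.2% of its 17190 young reads. With any 1 cell left out its difference was between -0.64 and -0.33. *Abca3*, a phospholipid transporter of lamellar bodies, was expressed in 5 young and 12 old cells, at 0.50 ± 1.53 and 1.08 ± 2.31 (0.57), and 1 young cell held 77.8% of the young reads. With any 1 cell left out the difference of *Abca3* was between 0.43 and 0.71. Of the 51-base words of its transcript, 14.2% occurred in another gene. *Abca2* was expressed in 19 young and 25 old cells, at 2.20 ± 3.0 and 2.49 ± 3.03, and in old cells had the highest level per kilobase of subfamily A, at 7.76 CPM per kb. In young cells this was *Abca1*, at 13.6 CPM per kb, but only with 1 cell that held 68.7% of its summed CPM. Without that cell *Abca1* was at 4.35 CPM per kb and *Abca5* was the highest of the subfamily, at 10.5 CPM per kb. The level of *Abca5* in turn was 2.07 CPM per kb without 1 young cell that held 80.3% of its summed CPM. *Tap1* and *Tap2*, the ABC genes of antigen peptide transport whose symbols do not follow the family pattern, were at 0.33 and 0.30, and were expressed in 24 and 12 young and in 29 and 20 old cells.

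**Figure D4:**
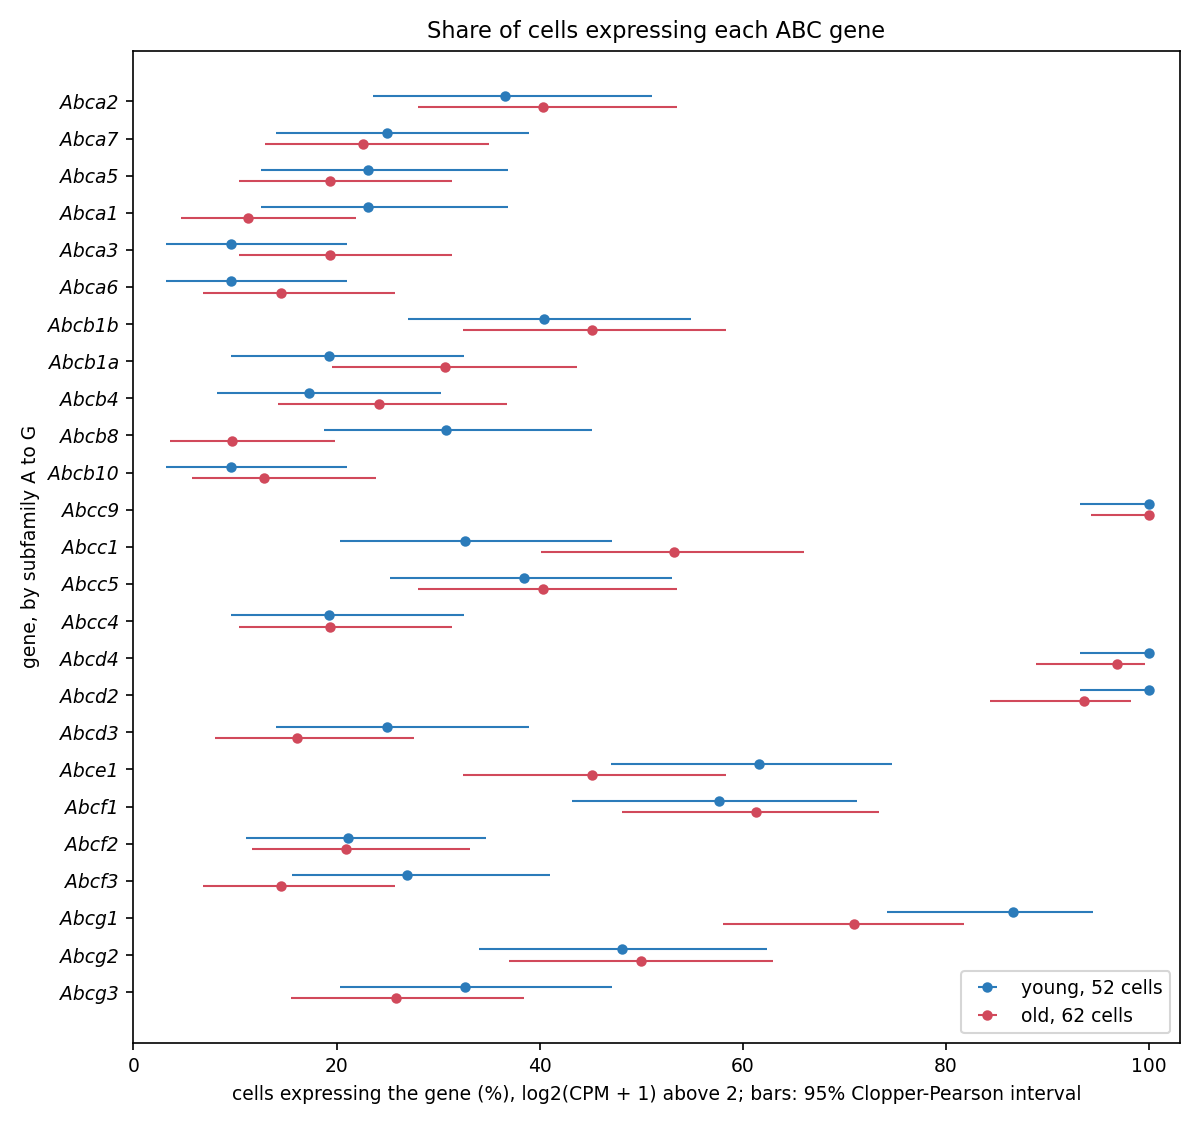
Share of cells expressing 25 of the 27 ABC genes that passed the filter (x axis, %; bars, 95% Clopper-Pearson intervals) in 52 young (blue) and 62 old (red) cells, ordered by subfamily. The intervals of the ages overlap for all 25 genes. Overlap was not counted over all genes, so it cannot be read as a trait of this family. Abcb8 and Abcc1 have the widest gaps among the genes called, and Abcc9, Abcd2 and Abcd4 are near 100% in both ages.

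Of the family, 3 genes had a pattern unlike the rest. *Abcc9*, a potassium channel subunit, *Abcd2*, a peroxisomal fatty acid transporter, and *Abcd4*, a lysosomal cobalamin transporter, were expressed in nearly every cell at low levels. All 52 young and all 62 old cells expressed *Abcc9*, 52 and 58 expressed *Abcd2*, and 52 and 60 expressed *Abcd4*. Their mean was 29.1, 13.4 and 31.5 CPM over the 114 cells, from a median of 54, 25 and 50 reads per cell. Of 5506 genes with a mean between 10 and 60 CPM, the median gene was expressed in 20.2% of cells and 3.98% (219 genes) in at least 95% of cells. Their differences between ages, -0.29, -0.36 and -0.40, were alike.

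These 3 genes also stood apart in sequence. Each carries, in the untranslated 3′ part of its transcript, 51-base words that occur in transcripts of at least 20 other genes, whereas the transcripts used for the other 24 ABC genes that passed the filter (1 per gene) hold none. Another transcript of *Abcb4* does, since all 7 such words of *Abcd2*, a run of 57 bases, occur in a transcript of that gene. The middle 30 bases of the most widely shared word are shown for each to let them be compared. Of the 30 bases of *Abcd2*, 23 in a row occur on the opposite strand of the *Abcc9* piece.
Abcc9, chr6:142590004-142590033, minus strand, exon 40 of 40, found in 80 other genes: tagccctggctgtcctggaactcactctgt
Abcd2, chr15:91147802-91147831, minus strand, exon 10 of 10, found in 140 other genes: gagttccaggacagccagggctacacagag
Abcd4, chr12:84602744-84602773, minus strand, exon 19 of 19, found in 81 other genes: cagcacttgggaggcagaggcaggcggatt

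Among the 219 genes with such uniform low counts, 147 of 180 with a transcript (81.7%) held a word found in at least 20 other genes, against 867 of 8379 other genes that passed the filter (10.3%). The authors kept 1 alignment for each read, so a read from a repeated sequence was placed at 1 of its possible origins. Whether reads of other transcripts gave the uniform counts was not tested.

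**Figure D5:**
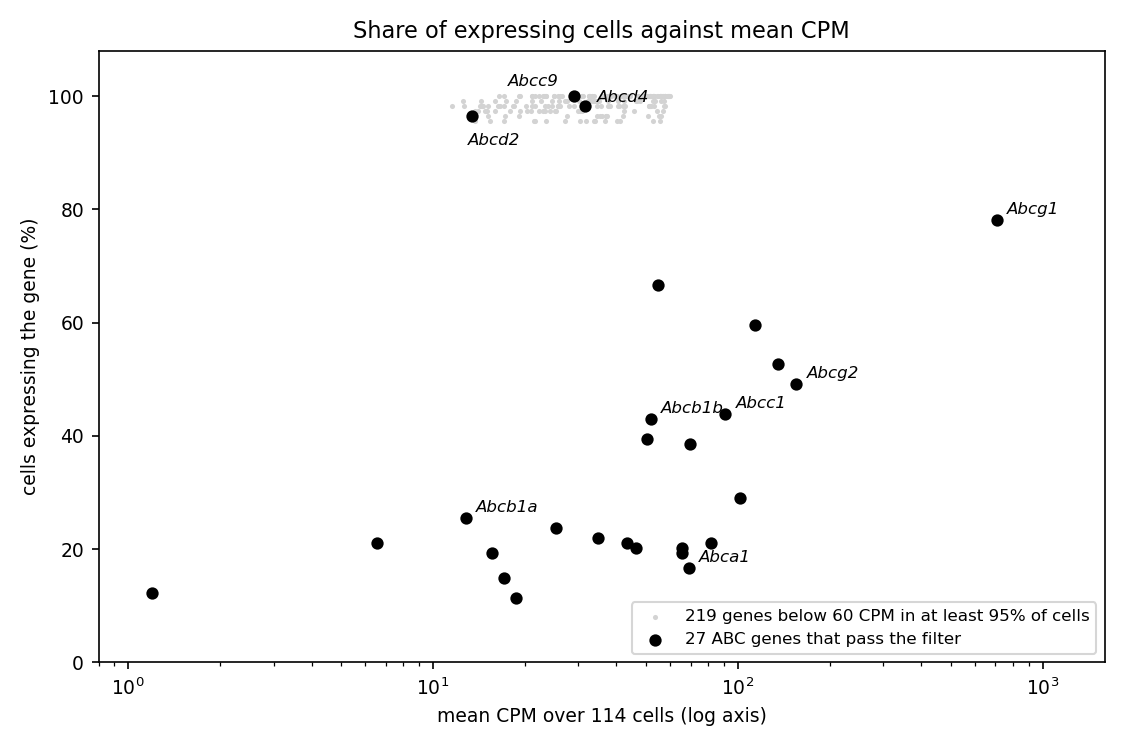
Share of the 114 cells expressing a gene (y axis, %) against its mean CPM (x axis, log scale) for the 27 ABC genes that passed the filter (black) and the 219 genes with a mean below 60 CPM that were expressed in at least 95% of cells (grey). Abcc9, Abcd2 and Abcd4 lie in the grey band near 100% at 13.4 to 31.5 CPM, whereas Abcg2, with 155 CPM, was found in 49.1% of cells.

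Single cells expressed from 6 to 18 of the 37 genes in the young mouse and from 5 to 18 in the old, with a median of 11 in both. Without *Abcc9*, *Abcd2* and *Abcd4* the median was 8 in both. With every cell thinned to 250000 reads the medians over the 37 genes were 11.5 and 12. Subfamily G held 49.4% of all ABC reads in young and 36.4% in old cells, A 14.7% and 8.29%, and D 7.64% and 6.03%. The shares of B (9.45% and 10.8%), C (6.09% and 15.9%), E (6.06% and 8.05%) and F (6.73% and 14.5%) were larger in old cells. Each share depends on the reads of all other members, *Abcg1* among them, and on single cells with many reads. In A, 1 young cell held 17347 *Abca1* reads and another 15499 *Abca5* reads, of 52851 young reads in the subfamily. The median summed CPM per cell of A was 35.05 in young and 34.5 in old cells, and that of F 46.04 and 45.92. For B it was 55.5 and 27.1 and for E 11.4 and 1.15, lower in old cells although their shares were larger. For C, D and G the median moved in the same direction as the share. The share of E was larger in old cells although its only gene, *Abce1*, was called lower, and 1 old cell held 40.5% of the old *Abce1* reads.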

How the data were processed

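Single-cell cDNA of 61 young and 74 old HSCs was sequenced as 51-base reads. The authors mapped them to mm10 with TopHat2 2.0.10, with 1 alignment kept per read, and counted them on RefSeq genes with rpkmforgenes (version not given in the sources used here); the deposited table holds these raw counts, without normalization and not stated to use strand. Cells with at least 500000 mapped reads, at most 10% mitochondrial reads and at least 3000 detected genes were used, from the quality values of the study. CPM was taken over each cell's counts with a pseudocount of 1.

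No test between ages was made, because each age is 1 mouse. The members and gene lists were chosen with earlier results of these data known. Genes named were *Abcg2*, *Abcb1a*, the 8 largest rises and 8 largest falls, the highest member per kilobase of each subfamily and 2 genes of each list. *Abcb4*, *Abcc9*, *Abcd2*, *Abcf3*, *Hif1a* and the Y-linked genes were added after their values had been seen, and so were the genes below the filter. Some genes are not reported here. Positions (all 37 genes matched) and promoters came from RefSeq, lengths and transcripts from GENCODE M21. Words of 51 bases were compared over the transcripts of 55341 genes. Alternatives covered the cells used, pseudocount, summed counts, TMMwsp factors (edgeR 4.0.16), poscounts factors (DESeq2 1.42.0), thinning, limits and filters. The steps were tested on simulated data. Scripts ran in R 4.3.3 and Python 3.11.15 (scipy 1.17.1, numpy 2.4.6, pandas 2.3.3).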

Additional observations from a re-analysis of the deposited data

How the results depend on the processing

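The count of ABC genes higher in old cells was 1, and it became 3 in cells without cell cycle transcripts, 2 with a pseudocount of 0.1 CPM, 6 by the ratio of summed counts and 4 at a difference of 0.5. Over all genes the share higher also moved, from 6.24% to 12.3%, 12.3%, 15.7% and 17.2% in the same order. The count of genes lower in old cells was 3, and it became 1 with the cells that failed the quality limits included, 5 with a pseudocount of 0.1 CPM, 5 by the ratio of summed counts and 7 at a difference of 0.5, where the share of all genes lower moved from 6.98% to 6.26%, 15.8%, 15.8% and 22.1%. With an expressing cell set above a log2 level of 4, old cells expressed a median of 7 ABC genes. The *Abcg2* difference was 0.88 by the ratio of summed counts, and the *Abcb1a* difference was -0.45 in cells without cell cycle transcripts. For these values the cause was not tested. Under the 9 alternatives run for single genes, *Abcg1* ranged from -2.64 to -1.48, *Abcc1* from 1.26 to 1.87, *Abcb8* from -2.04 to -0.98 and *Abce1* from -1.79 to -0.08. The median difference over ABC genes ranged from -0.30 to 0.07 under 14 alternatives, 3 of which were above zero; the one without *Abcc9*, *Abcd2* and *Abcd4* was chosen after seeing the data. No paired analysis was possible because each age is 1 mouse and the numbers in the labels only name cells; for the same reason no replicate could be left out. At this number of cells a share of 50% of 62 had an interval from 37% to 63%.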
